A study of Homo sapiens with 4 samples.

Results

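The genes described here are 60 genes of mitosis and of the G2/M transition, taken by symbol from the deposited counts and summed over the transcripts of each gene. They are 60 of 14911 genes listed in any library. Of these, 29 averaged at least 50 counts per library and are compared below with all 5320 genes that did so, and the other 31 are given by their counts.

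The libraries are from HEK293T, a continuously dividing line of human embryonic kidney origin that makes SV40 large T antigen. All cells were exposed to X-rays, at 10 Gy per the methods, and no unexposed library was analysed here. Cells had been transduced with lentivirus and selected with puromycin to carry a control shRNA (shCTL) or an shRNA against ALKBH5 (shA5), an enzyme that removes m6A from RNA. From each, polyA RNA was sequenced as it was (input) and after selection of fragments by an m6A antibody (m6A-IP), which gave 4 libraries, 1 library per group, without a replicate. The time from exposure to harvest, and which ALKBH5 shRNA was used, are not given for these libraries in the sources used here.

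CDK1 bound to cyclin B drives entry into mitosis, with WEE1 and PKMYT1 as its brakes and the CDC25 phosphatases as its release. The kinetochore then joins chromosomes to the spindle, the checkpoint holds back the anaphase-promoting complex until all are attached, and separase cuts cohesin. Many of these genes are transcribed late in the cycle, and after irradiation cells with intact checkpoints delay at G2/M. m6A is a methyl mark on adenosine, found mostly in a GGAC-like context, in long internal exons and near stop codons, and it affects the stability and export of mRNA.

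Wherever 4 values stand in a row below, they are the input and m6A-IP of shCTL followed by the input and m6A-IP of shA5. Library totals were 2237819, 3944402, 1311390 and 3148119 counts. The members held 18465, 30145, 10098 and 22454 of them, or 8251, 7642, 7700 and 7133 CPM, which are counts scaled to a library total of 1000000. ALKBH5 itself had 486, 1432, 145 and 589 counts, and its level in the shA5 input was 0.510-fold that in the shCTL input. Of 8 markers of HEK293 cells all had a count, led by NEFL with 80.0 CPM in the input of shCTL, but PAX2 had 1 count in all and NEFM, INA and VIM had few. Of 10 markers of other cell types 3 had counts (COL3A1, CD68 and PECAM1), with a summed level of 6.26, 8.62, 14.5 and 9.53 CPM, so it was highest in the shA5 input, where COL3A1 and CD68 had 13 and 6 counts. The summed HEK293 markers had 163, 250, 118 and 200 CPM, lower in both shA5 libraries. The part of either in the values below was not tested. PTPRC, CD3E, HBB, ALB, MYH7, INS and GFAP were at 0 in every library.

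Counts are per transcript, and a gene with many annotated transcripts tended to have fewer. The most counted transcript of a gene had a median of 67.1 counts per kb where the gene has 1 annotated coding transcript, and 13.1 where it has 10 or more. Of the 60 members, 46 have their MANE Select transcript, the one that annotators chose to represent the gene, among those listed. CDK1 is an example, with 6, 4, 3 and 2 counts, all on a transcript that is not the MANE Select one. A low total is therefore not read here as low expression, and levels are not compared between genes. In bulk RNA, fewer cells in G2/M and less RNA per cell cannot be told apart.

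Short sequences of 2 kinds are shown, the first because m6A mostly lies in such a context and the other because it is common in promoters of the members. The first are GGACT sites, the form of the m6A context searched here, on the transcript strand. In each gene the site nearest to the end of the coding sequence that lies with 10 bases on either side in 1 exon is given, GGACT in capitals, 5′ to 3′, read from hg38 with Gencode v44. CENPB, CENPI and WEE1 had the highest m6A enrichment of the 29 members with enough counts.
CENPB (chr20:3784613-3784637, minus strand, 3′ UTR of its only exon): ccagggcagaGGACTctctgggcac
CENPI (chrX:101162986-101163010, plus strand, 3′ UTR, exon 21 of 21): tgaacacactGGACTaaactcactc
WEE1 (chr11:9588710-9588734, plus strand, 3′ UTR, exon 11 of 11): ttactgattaGGACTtttattgtga
CDCA3 and KIFC1, at places 4 and 6 of 29 in shCTL, had that site in the coding sequence, and MKI67, at place 5, in the 3′ UTR. Members that stood among the lowest hold such sites as well, here within the coding sequence, though CDC25A and MAD2L1 also hold 3 and 4 GGACT after it.
CDC25A (chr3:48159030-48159054, minus strand, exon 15 of 15): tgcaccacgaGGACTttaaagaaga
NCAPD2 (chr12:6528297-6528321, plus strand, exon 25 of 32): gtggacccctGGACTcctcatctgt
MAD2L1 (chr4:120065730-120065754, minus strand, exon 2 of 5): gcagaaatacGGACTcaccttgctt
CCNB1 (chr5:69177322-69177346, plus strand, exon 8 of 9): ggtaaatcaaGGACTtacaaagcac
The other 4 are from SPC25 and UBE2C, which were past 1.5-fold in input, and from CENPF and TOP2A, which carry much of the members' summed change.
SPC25 (chr2:168876082-168876106, minus strand, coding sequence, exon 5 of 7): agatcgacttGGACTagaaattcga
UBE2C (chr20:45816837-45816861, plus strand, 3′ UTR, exon 6 of 6): tttctgtataGGACTctttatcttg
CENPF (chr1:214663743-214663767, plus strand, coding sequence, exon 20 of 20): ccccaaagctGGACTggagtccaac
TOP2A (chr17:40389601-40389625, minus strand, coding sequence, exon 35 of 35): acttccatatGGACTttgactcagc

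GGACT occurs in the most counted transcript of all 29 members with enough counts, against 93.3% of all genes with enough counts. Within 200 bases on either side of the coding end it occurs in 12 of the 23 members whose transcript spans that window, or 52.2%, against 39.7% of 4861 genes. A match is a description of the letters and not a mapped methylation site. Per kb of transcript, the median number of GGACT was 0.957 in the members and 0.960 in all genes.

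The other sequence is TTTGAA, the core of the cell cycle genes homology region, an element known from promoters of G2/M genes. Both strands were searched, with CCAAT on both strands beside it, from 250 bases before to 50 after the gene start in RefSeq promoters (GRCh38.p14). The table holds 50 of the 60 members. TTTGAA stands in 34 of these 50 promoters, or 68.0%, against 15.4% of all 27305 promoters. CCAAT also stands in 34 of 50, against 35.7% of all promoters, and both stand in 25 of 50, against 6.08%. The site is shown for 6 members with both motifs, TTTGAA in capitals and 10 bases on either side, on the strand of the gene.
PLK1 (chr16:23678850-23678875, plus strand): cagcgccgcgTTTGAAttcggggagg
CCNB2 (chr15:59105107-59105132, plus strand): cgacgcggtaTTTGAAtcctggaaca
CDC20 (chr1:43358906-43358931, plus strand): acggttggatTTTGAAggagccaata
MKI67 (chr10:128126437-128126462, minus strand): ttcgttttcgTTTGAAttgggcgggc
KIF4A (chrX:70290060-70290085, plus strand): ccgggacggaTTTGAAacttggcggt
ESPL1 (chr12:53268258-53268283, plus strand): gccgcggataTTTGAAaggagggtct
In PLK1, CCNB2 and MKI67 the motif printed begins 29 bases before the RefSeq start, in ESPL1 31, in KIF4A 34 and in CDC20 65. Among the members with no TTTGAA in this window are CCNB1, CCNA2, CDC25A, CDC25B, CDC25C, AURKB and CENPB. Only the first promoter listed for a gene was searched, so the element may lie at another start or outside the window.

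**Figure D1:**
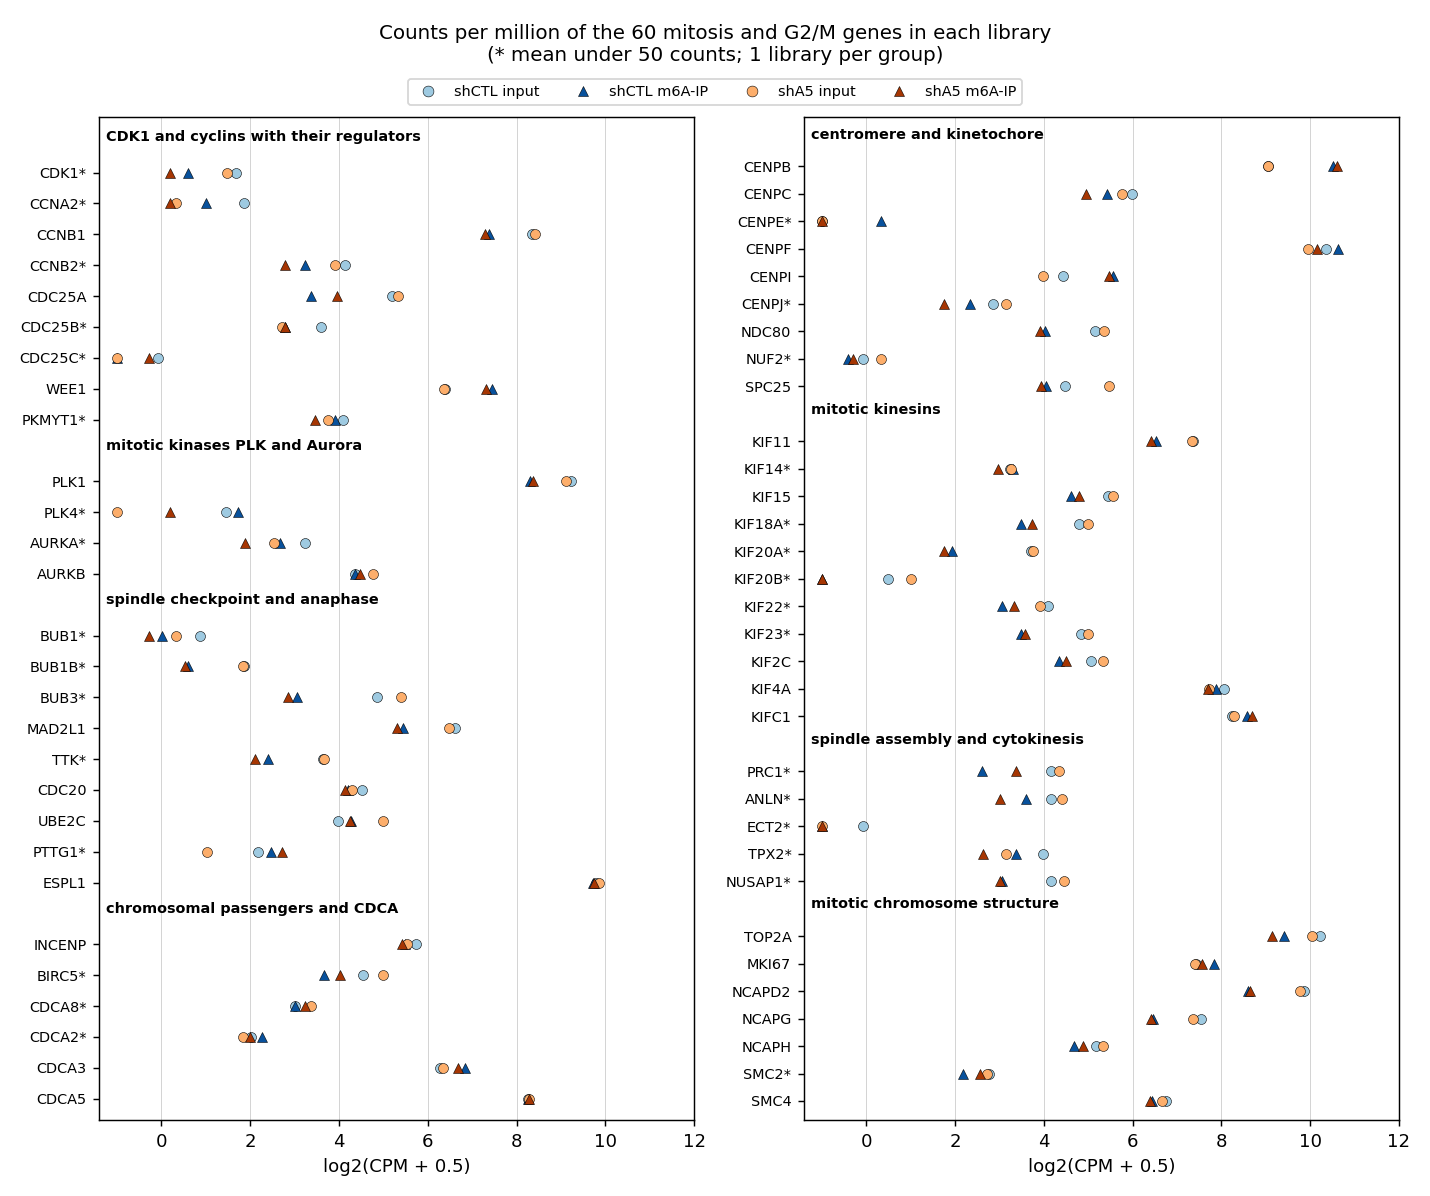
Level of each of the 60 members in the 4 libraries as log2(CPM + 0.5), ordered by role, with circles for input, triangles for m6A-IP, blue for shCTL and orange for shA5. An asterisk marks the 31 members with a mean under 50 counts, and in CENPB the triangles stand to the right of the circles (1459 against 531 CPM in shCTL), while in CENPF the orange symbols stand to the left of the blue ones of the same shape.

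The first comparison asks whether the input RNA of mitotic genes differed after ALKBH5 knockdown in irradiated cells. The median of the members lay where that of all genes lay. The log2 change from shCTL to shA5, computed on CPM with a pseudocount of 0.5, was -0.02 over the 29 members and -0.02 over all genes. At least 1.5-fold higher in shA5 were 2 of 29 members (SPC25 and UBE2C), where the share over all genes is 3.44%, and 0 were at least 1.5-fold lower, where it is 6.43%. Both genes reached the mean of 50 counts through the shA5 input in which they were high, since at the shCTL input level their means would be 46.9 and 46.5, so they are described and not read as a share of the members. In the m6A-IP libraries, which hold separate reads, the median change was -0.06 over members and -0.02 over all genes. There 0 members were 1.5-fold higher and 0 lower, beside 2.58% and 4.89% of all genes. Input was above 0 in this change in 14 of 29 members and m6A-IP in 11, beside 47.5% and 47.7% of all genes.

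Summed over all 60 members, the level in shA5 was lower by log2 -0.10 in the input (95% interval -0.13 to -0.06) and by -0.10 in the m6A-IP (-0.12 to -0.07). Intervals here and below are exact, from the counts alone, and cover counting error only, since reads carry no molecular identifiers and no replicate shows how much cultures differ. Much of that difference lies in CENPF and TOP2A. Without this pair, chosen after their values were seen, the sum of the other 58 changed by -0.02 in the input (-0.06 to 0.02) and by 0.01 in the m6A-IP (-0.02 to 0.04). The 31 members under the count minimum, summed, had 719, 673, 435 and 497 counts, an input change of 0.05 (-0.13 to 0.22) and an m6A-IP change of -0.11 (-0.28 to 0.06).

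**Figure D2:**
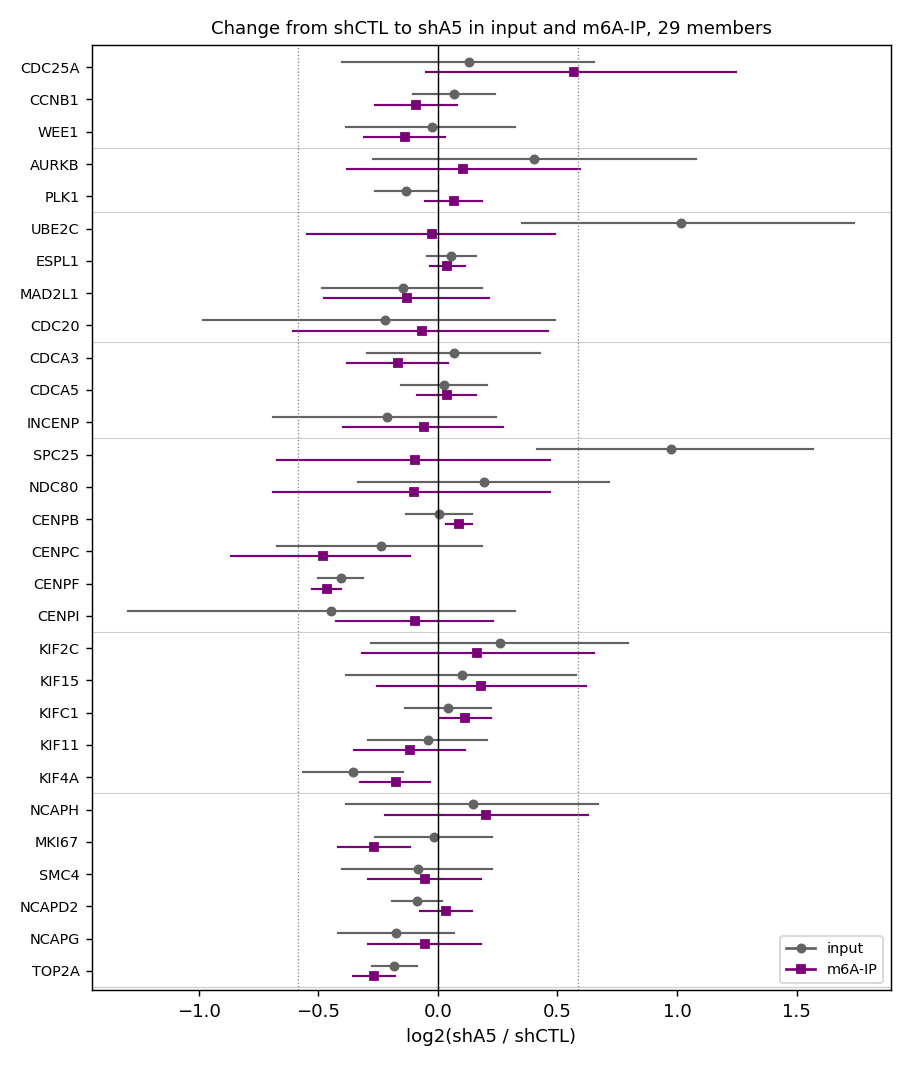
Log2 ratio of shA5 to shCTL for the 29 members with enough counts, ordered by role, with grey circles for input, purple squares for m6A-IP, bars for exact 95% counting intervals and dotted lines at 1.5-fold. SPC25 and UBE2C lie past the dotted line in input at 0.97 and 1.02 but near 0 in m6A-IP, while CENPF lies below 0 in both, at -0.41 and -0.47.

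The second comparison asks how strongly the members were enriched in the m6A-IP and whether that differed in shA5. m6A enrichment is the log2 ratio of m6A-IP to input CPM of a gene, with 0.5 CPM added to each. It depends on the scaling, since edgeR TMM factors move its median over all genes from -0.11 to 0.17 in shCTL and from -0.10 to 0.23 in shA5, so the members are read against all genes. Their median was -0.30 in shCTL and -0.45 in shA5, which is 0.19 and 0.35 below all genes. With TMM factors the members' medians were -0.02 and -0.12, and 0.20 and 0.35 below all genes. At least 1.5-fold enriched in shCTL were 3 of 29 members, CENPB, CENPI and WEE1, where the share over all genes is 22.5%, and the same 3 passed in shA5, where it is 24.3%. At or under 1/1.5 were 11 members in shCTL and 14 in shA5, beside 30.3% and 31.7% of all genes. The 14 include SPC25 and UBE2C, which passed the count minimum through the shA5 input that lowers this ratio. CDC25A and NDC80, counted in both, had means of 54.75 and 60 and more counts in each input than in its m6A-IP. They too passed with the help of the inputs, so these genes are described and not read as part of a share. With TMM factors 6 members were at least 1.5-fold enriched in shCTL and 7 at or under 1/1.5, beside 33.4% and 20.5% of all genes, and in shA5 5 and 8, beside 36.8% and 21.3%.

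From shCTL to shA5 the enrichment of the members changed by a median of 0.01, and that of all genes by 0.00. At least 1.5-fold higher in shA5 were 0 members, beside 5.38% of all genes, and 2 were at least 1.5-fold lower, beside 5.09%. Those 2 were again SPC25 and UBE2C, whose ratio shares the shA5 input count with the input change and which passed the count minimum through that library. By library totals 8 of 29 members had an enrichment above 0 in shCTL and 8 in shA5, 7 of them in both, beside 45.5% and 46.3% of all genes. In order of enrichment from the highest, UBE2C stood at place 7 of 29 in shCTL and 17 in shA5, and SPC25 at 16 and 29. By TMM factors, which move every enrichment up, 13 were above 0 in shCTL and 14 in shA5, beside 57.2% and 59.2% of all genes.

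**Figure D3:**
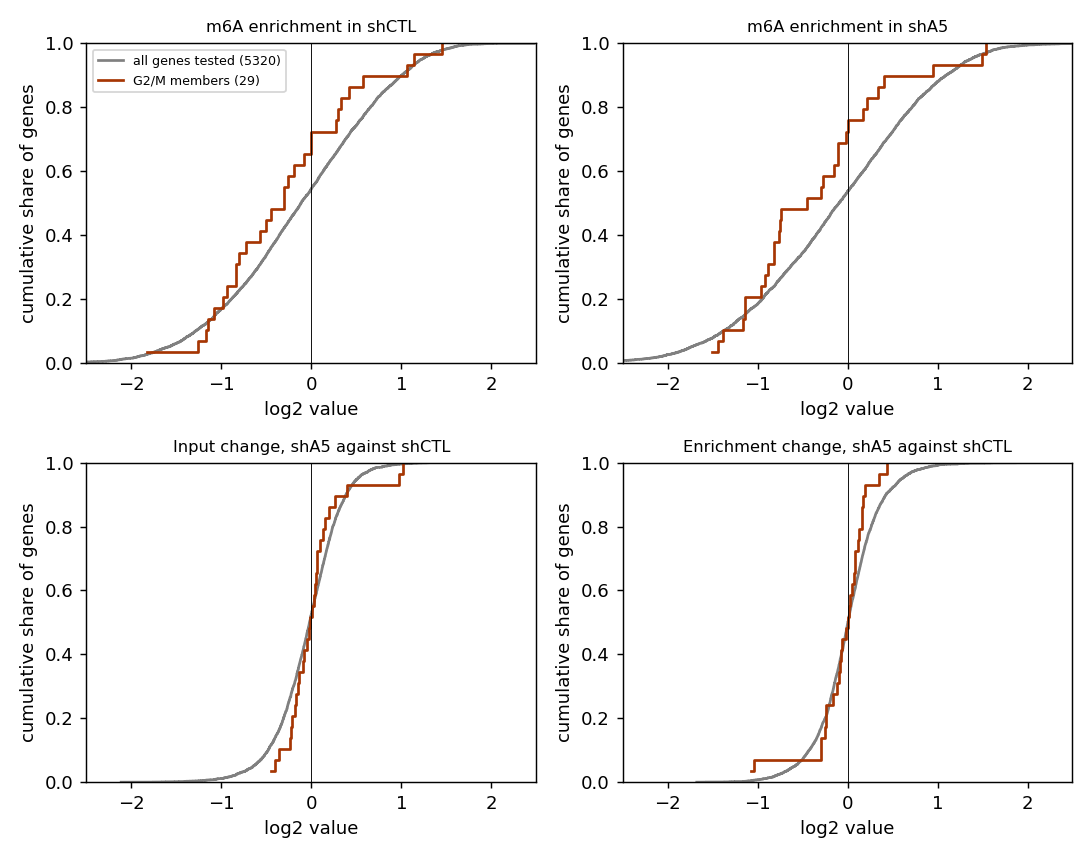
Cumulative share of genes against the log2 value for the 29 members (orange) and all 5320 genes with enough counts (grey), in 4 panels for m6A enrichment in shCTL, m6A enrichment in shA5, input change and change of enrichment. The members' curves lie to the left in both panels of enrichment, with medians of -0.30 and -0.45 against -0.11 and -0.10, and close to all genes in both panels of change.

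Among CDK1, the cyclins and their regulators, 3 of 9 had enough counts. CCNB1, the cyclin that carries CDK1 into mitosis, had 328, 166, 343 and 156 CPM. Its inputs differed by 0.07 (-0.11 to 0.24), and it was low in m6A enrichment in both kinds of cell, at -0.98 (-1.14 to -0.83) in shCTL and -1.14 (-1.33 to -0.95) in shA5. WEE1, the kinase that phosphorylates CDK1 and holds it inactive, stood at the other end. It had 83.1, 174, 81.6 and 158 CPM. Its enrichment was 1.06 (0.83 to 1.31) in shCTL and 0.95 (0.65 to 1.27) in shA5, so the mRNA of WEE1 was enriched and that of CCNB1 was not, in both. This is not a trait of the brakes. PKMYT1, under the count minimum, stood at -0.19 (-0.82 to 0.44) in shCTL and -0.29 (-1.19 to 0.63) in shA5.

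CDC25A, a phosphatase that activates cyclin-dependent kinases and is degraded after DNA damage, had the lowest enrichment of the 29 in shCTL. It had 81, 39, 52 and 47 counts. Enrichment was -1.82 (-2.46 to -1.30) in shCTL and -1.38 (-2.01 to -0.81) in shA5, a change of 0.44 with a counting interval from -0.38 to 1.31. Its m6A-IP level was higher in shA5 by 0.57 (-0.05 to 1.25), the largest of the 29 members with enough counts and just short of 1.5-fold. With DESeq2 size factors, or with a pseudocount of 0.1 CPM, it passes that line.

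The other 6 genes of this group had few counts. CCNB2 had 38, 35, 19 and 20 counts, PKMYT1, the membrane-bound partner of WEE1, had 37, 57, 17 and 33, and CDC25B had 26, 25, 8 and 20. CCNA2, the cyclin of S phase and G2, had 7, 6, 1 and 2, on a transcript that is not in Gencode v44. CDC25C had 1, 0, 0 and 1. These counts, like those of CDK1, do not allow a comparison at this depth.

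Of the 4 mitotic kinases of the Polo and Aurora families, PLK1 and AURKB had enough counts. PLK1, which promotes mitotic entry, centrosome maturation and cytokinesis, had 602, 316, 550 and 330 CPM. Input was slightly lower in shA5 and m6A-IP slightly higher, by -0.13 (-0.26 to -0.00) and 0.07 (-0.05 to 0.19). Its enrichment was -0.93 (-1.04 to -0.82) in shCTL and -0.73 (-0.87 to -0.60) in shA5, a difference of 0.20 (0.02 to 0.38), far under 1.5-fold. Exons of ERN2 and of a lncRNA overlap PLK1 on the opposite strand, and the sources do not say whether counting used strand. AURKB, the kinase of the chromosomal passenger complex, had 45, 79, 35 and 68 counts and an input change of 0.40 with an interval from -0.27 to 1.08. AURKA had 20, 23, 7 and 10 counts, with 25.8% of its stretches of 25 bases found in transcripts of other genes, chiefly RAB3GAP2. PLK4, which starts centriole duplication, had 5, 11, 0 and 2.

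In the spindle checkpoint and anaphase group 4 of 9 had enough counts. ESPL1, the separase that opens cohesin at anaphase, was counted deeply and hardly differed, with 889, 838, 924 and 861 CPM. Its input change was 0.06 (-0.05 to 0.16) and its enrichment -0.08 in shCTL and -0.10 in shA5. MAD2L1, which inhibits CDC20 at unattached kinetochores, had 97.9, 43.1, 88.5 and 39.4 CPM. Its enrichment of -1.17 (-1.48 to -0.89) in shCTL and -1.16 (-1.54 to -0.79) in shA5 was low in both, and the values lay within each other's counting interval. CDC20, the activator of the anaphase-promoting complex, had 50, 71, 25 and 54 counts, with an input change of -0.22 (-0.98 to 0.49). It sits at the count minimum, with BIRC5 just below it at a mean of 47.5, and 33.7% of its stretches of 25 bases also occur in its pseudogene CDC20P1.

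UBE2C, the ubiquitin-conjugating enzyme that works with the anaphase-promoting complex, had the largest input change of the 29 members with enough counts. The inputs of shCTL and shA5 held 34 and 41 counts (15.2 and 31.3 CPM), and the m6A-IPs 74 and 58 (18.8 and 18.4 CPM). So the input was higher in shA5 by 1.02 (0.35 to 1.74), or 2.02-fold, while the m6A-IP differed by -0.03 (-0.55 to 0.49). Enrichment went from 0.30 (-0.30 to 0.94) to -0.75 (-1.36 to -0.15), a change of -1.04 (-1.95 to -0.19) that uses the same shA5 input count. UBE2C passed the count minimum through the shA5 input, since its mean would be 46.5 at the shCTL input level. Its intervals take no account of that, nor of its choice as the largest change, so the values are described only. The counts are spread over 6 listed transcripts. Its most counted one, ENST00000372568, had 23 and 21 counts in the inputs, while ENST00000352551 had 3 and 13. Relative to the library totals both were higher in shA5, the minor transcript by more. Taken by its most counted transcript alone, UBE2C no longer has a mean of 50 counts.

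The other 5 of that group are the checkpoint kinases and their partners. BUB3 had 64, 31, 55 and 21 counts, TTK 27, 19, 16 and 12, and PTTG1, the securin that restrains separase, 9, 20, 2 and 19. BUB1 and BUB1B had at most 7 counts in any library. For PTTG1 the m6A-IP counts were 20 and 19 where the inputs had 9 and 2, and 35.3% of its stretches of 25 bases also occur in transcripts of other genes, chiefly PTTG3P.

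Of the chromosomal passenger and CDCA genes 3 of 6 had enough counts. CDCA5 (sororin), which protects cohesin between sister chromatids, had 305, 304, 310 and 312 CPM. With an input change of 0.03 (-0.15 to 0.21) and an enrichment of -0.00 in shCTL and 0.01 in shA5, it hardly differed among the 4 libraries. CDCA3, a trigger of mitotic entry through degradation of WEE1, had 171, 451, 105 and 320 counts and an enrichment of 0.58 (0.32 to 0.84) in shCTL and 0.34 (0.02 to 0.68) in shA5. It lies just under 1.5-fold in shCTL, and exons of GNB3 overlap it on the opposite strand. INCENP, the scaffold of the passenger complex, had 119, 175, 60 and 134 counts and an input change of -0.21 (-0.69 to 0.24). BIRC5 (survivin), the passenger that reaches the centromere, had 51, 48, 41 and 50 counts, CDCA8 (borealin) 17, 30, 13 and 28, and CDCA2 8, 17, 4 and 11.

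Of the centromere and kinetochore genes 6 of 9 had enough counts, and they held the 2 highest values of m6A enrichment in shCTL among the 29 members. CENPB binds a short box in centromeric satellite DNA and is encoded by a gene of 1 exon (chr20:3783851-3786740, minus strand, hg38). It had 531, 1459, 533 and 1552 CPM, so both m6A-IPs stood far above both inputs. The inputs differed by 0.00 (-0.13 to 0.14), and enrichment was 1.46 (1.37 to 1.55) in shCTL and 1.54 (1.43 to 1.66) in shA5, 2.74-fold and 2.91-fold over input. Its transcript also has the highest GC content of the 29, at 66.5%, and with the trend on GC removed its enrichment was 0.87 and 0.86. CENPI, a subunit of the inner kinetochore network, had 47, 185, 20 and 138 counts. Its enrichment was 1.14 (0.69 to 1.65) and 1.49 (0.84 to 2.28), and its input change of -0.45, the lowest of the 29, had an interval from -1.29 to 0.32.

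CENPF, a large coiled-coil protein of the outer kinetochore made in G2 and M (chr1:214603185-214664574, plus strand, hg38), had the most counts of the members. It had 2918, 6233, 1289 and 3601 counts, or 1304, 1580, 983 and 1144 CPM. Both shA5 libraries were lower, the input by -0.41 (-0.50 to -0.31) or 0.754-fold and the m6A-IP by -0.47 (-0.53 to -0.41) or 0.724-fold. Since both moved alike, its enrichment of 0.28 (0.21 to 0.34) in shCTL was 0.22 (0.13 to 0.31) in shA5. The difference is short of 1.5-fold, and with 1 library per group it compares these libraries only.

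SPC25, a subunit of the NDC80 complex that grips microtubules, had 49, 63, 57 and 47 counts, with 21.9 and 43.5 CPM in the inputs. As in UBE2C, the input was higher in shA5, by 0.97 (0.41 to 1.57) or 1.96-fold, and the m6A-IP was not, at -0.09 (-0.67 to 0.47). Enrichment was -0.44 (-1.02 to 0.11) in shCTL and -1.51 (-2.13 to -0.96) in shA5. SPC25 too passed the count minimum through the shA5 input, with a mean of 46.9 at the shCTL input level. Its values are therefore described only. All its counts lie on 1 listed transcript, which is the MANE Select one, and 20.5% of its stretches of 25 bases occur in transcripts of other genes, chiefly HELLPAR.

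NDC80, its partner in that complex, had 79, 62, 53 and 46 counts. Its input change of 0.19 (-0.34 to 0.72) was above 0 like that of SPC25, but short of 1.5-fold, with an interval that holds 0 and overlaps that of SPC25. Its enrichment was -1.14 (-1.67 to -0.67) in shCTL and -1.44 (-2.07 to -0.87) in shA5, a change of -0.29 (-1.09 to 0.49). NUF2, another subunit, had 1 count in each library. CENPC, which ties centromeric nucleosomes to the kinetochore, had 141, 167, 70 and 95 counts and the lowest m6A-IP change of the 29 members with enough counts, -0.48 (-0.87 to -0.12), beside an input change of -0.24 (-0.67 to 0.18). Of its stretches of 25 bases 19.3% occur in transcripts of other genes, chiefly CENPCP1. CENPJ, a centriole protein, had 15, 18, 11 and 9 counts, and CENPE, the kinetochore motor, had 3 counts, all in the shCTL m6A-IP.

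Of the 11 mitotic kinesins 5 had enough counts. KIF4A, a chromokinesin of the spindle midzone, had 268, 234, 210 and 207 CPM. It was lower in shA5 in both, by -0.35 (-0.57 to -0.15) and -0.18 (-0.32 to -0.03). However, 36.0% of its stretches of 25 bases are shared with other transcripts, nearly all with its retrocopy KIF4B, and exons of PDZD11 overlap it on the opposite strand. KIFC1, a minus-end motor that clusters centrosomes, had 302, 381, 311 and 413 CPM. Its enrichment was the highest of the 5 kinesins, at 0.34 (0.20 to 0.47) in shCTL and 0.41 (0.25 to 0.57) in shA5, followed by KIF4A at -0.19 (-0.34 to -0.04) and -0.02 (-0.22 to 0.19) by library totals, values that TMM factors move above 0.

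KIF11, the motor that pushes spindle poles apart, had 165, 91.8, 160 and 84.5 CPM, with an input change of -0.04 (-0.29 to 0.21). KIF15, which can stand in for KIF11, had 97, 95, 61 and 86 counts, and KIF2C, a depolymerase at centromeres, had 74, 78, 52 and 70. All of these 3 were low in m6A enrichment, KIF11 at -0.84 in shCTL and -0.92 in shA5, KIF15 at -0.83 and -0.76, and KIF2C at -0.73 and -0.82. Their input changes of 0.10 for KIF15 and 0.26 for KIF2C had intervals that reach from -0.38 to 0.58 and from -0.28 to 0.79. The other 6 kinesins were KIF18A with 61, 42, 41 and 40 counts, KIF23 with 63, 42, 41 and 36, KIF22 with 37, 31, 19 and 30, KIF14 with 20, 37, 12 and 23, KIF20A with 28, 13, 17 and 9, and KIF20B with 2, 0, 2 and 0.

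Spindle assembly and cytokinesis had 0 of 5 genes with enough counts. ANLN, which organises the contractile ring, had 39, 46, 27 and 24 counts, NUSAP1 39, 31, 28 and 24, and PRC1, the bundler of midzone microtubules, 39, 22, 26 and 31. TPX2, the activator of AURKA on the spindle, had 34, 39, 11 and 18 counts. ECT2, which starts the cleavage furrow, had a count of 1 in the shCTL input and none elsewhere. Nearly all stretches of 25 bases of NUSAP1 (96.9%) and most of those of PRC1 (87.0%) also occur in transcripts annotated to another gene, ENSG00000285920 and ENSG00000284946. How reads shared with them were counted is not given in the sources used here. With these counts a 1.5-fold difference was not detectable for these genes, as in ANLN, whose interval of the input change ran from -0.52 to 0.99.

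Of the genes of mitotic chromosome structure 6 of 7 had enough counts, and 1 of the 6 was above 0 in input change, beside 47.5% of all genes. TOP2A, the topoisomerase that untangles sister chromatids (chr17:40388525-40417896, minus strand, hg38), had 1187, 680, 1046 and 565 CPM. It was lower in shA5 by -0.18 (-0.28 to -0.09) in the input and by -0.27 (-0.35 to -0.18) in the m6A-IP. Enrichment was -0.80 (-0.88 to -0.73) in shCTL and -0.89 (-0.99 to -0.79) in shA5, below the median of all genes in both. MKI67, which coats mitotic chromosomes and is the common marker of dividing cells, had 171, 228, 169 and 189 CPM. Its input differed by -0.02 (-0.26 to 0.22) and its m6A-IP by -0.27 (-0.42 to -0.12), so enrichment was 0.41 (0.24 to 0.59) in shCTL and 0.17 (-0.06 to 0.40) in shA5, a change of -0.25 (-0.54 to 0.04).

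Condensin folds chromosomes into rods, and its subunits among the members lay below the median of all genes in enrichment, in shCTL and in shA5. This does not hold for all of condensin. In the list of other mitosis genes given below, NCAPH2 stood at 1.09 and 1.17, and NCAPD3 at -0.95 and -1.16. NCAPD2 had 929, 387, 874 and 397 CPM, and an enrichment of -1.26 (-1.36 to -1.17) in shCTL and -1.14 (-1.26 to -1.02) in shA5. NCAPG had 185, 87.5, 164 and 84.2 CPM, with an enrichment of -1.08 and -0.96. NCAPH, at -0.50 and -0.45, and SMC4, at -0.30 and -0.27, were nearer to all genes. The input changes of these 4 lay between -0.17 (NCAPG) and 0.15 (NCAPH) on the log2 scale. SMC2 had 14, 16, 8 and 17 counts. Exons of LCORL overlap NCAPG, and of IFT80 and TRIM59 overlap SMC4, on the opposite strand.

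**Figure D4:**
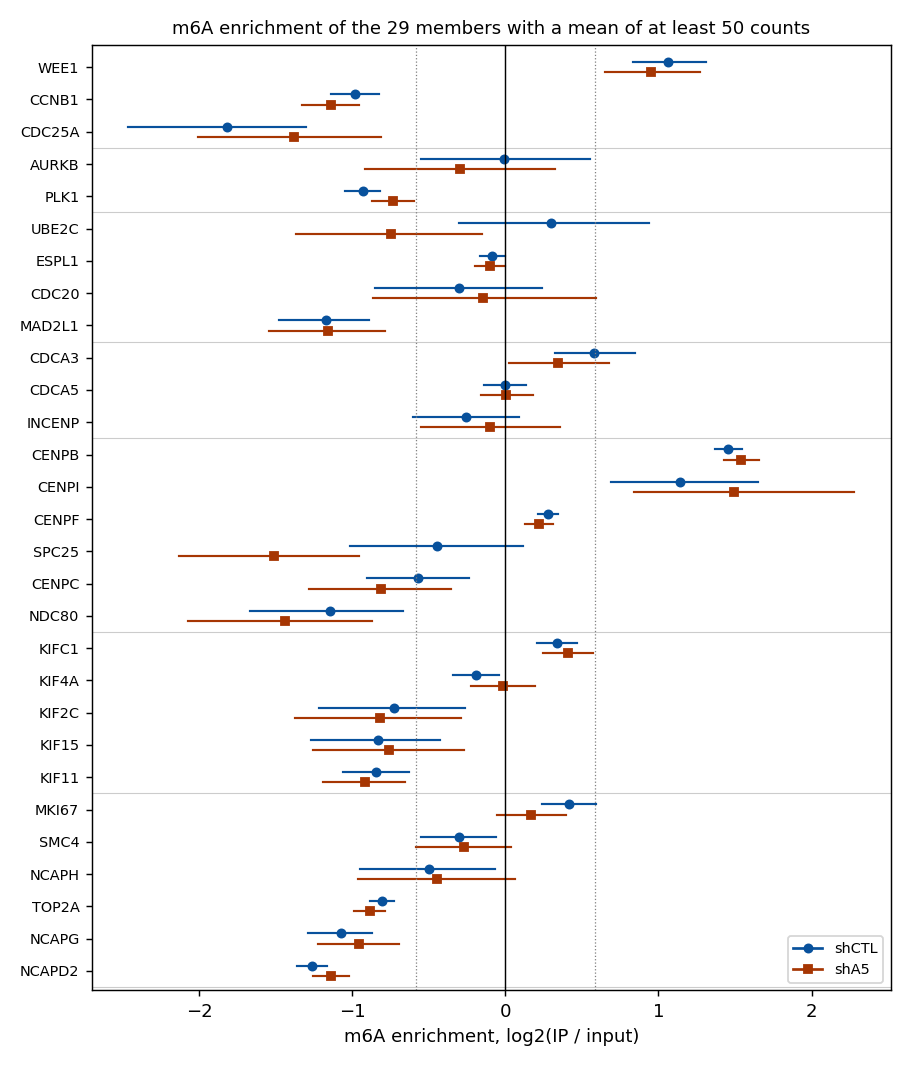
m6A enrichment, log2 of m6A-IP over input, for the 29 members by role, with blue circles for shCTL, orange squares for shA5, bars for exact 95% counting intervals and dotted lines at 1.5-fold either way. CENPB (1.46 and 1.54), CENPI (1.14 and 1.49) and WEE1 (1.06 and 0.95) stand to the right in both, and SPC25 and UBE2C show the widest gaps between shCTL and shA5.

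Of a list of 84 other genes of mitosis, 32 had enough counts. In input 0 were at least 1.5-fold higher and 0 lower, beside 3.44% and 6.43% of all genes, with a median of 0.07. In m6A-IP 2 of 32 were lower, beside 4.89% of all genes, ASPM at -0.83 and CKAP5 at -0.69, both spindle pole proteins named after their values were seen. Their median enrichment was -0.17 in shCTL, with 5 of 32 enriched, beside 22.5% of all genes (DSN1 at 1.18, ANAPC7 at 1.15, NCAPH2 at 1.09, HASPIN at 0.99 and SGO2 at 0.64), and -0.33 in shA5, with 7 enriched, beside 24.3%. At or under 1/1.5 were 10 in shCTL and 12 in shA5, beside 30.3% and 31.7%. For the change of enrichment 0 were higher, beside 5.38% of all genes, and 4 of 32 lower, beside 5.09%, CKAP5 at -1.11, SGO2 at -0.89, CENPP at -0.72 and NSL1 at -0.70. SGO2 had 35, 97, 26 and 52 counts, so it passed the count minimum through the shCTL m6A-IP, where it was high. Its change had an interval from -1.86 to 0.03. It is therefore described, and not read as part of a share, both here and among the enriched in shCTL. Of 59 S-phase genes 37 had enough counts, with a median input change of 0.05 and a median enrichment of -0.54 in shCTL and -0.62 in shA5, further below all genes than the members.

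In the reference the members with enough counts differ in build from other genes. Their most counted transcripts have a median of 17 exons against 9, a coding part of 2175 bases against 1395, and 717 bases after it against 1439. The last exon has a median of 849 bases against 1820, and GC content is 46.7% against 51.4%. Over the 29 members, GC content and enrichment in shCTL went together with Pearson's r of 0.37 and Spearman's rho of 0.41, as over all genes with 0.36 and 0.36, where the points are genes of the same libraries. With a trend on GC removed, the members' median enrichment minus that of all genes went from -0.19 to -0.17 in shCTL and from -0.35 to -0.22 in shA5. At or under 1/1.5 were then 7 members in place of 11 in shCTL and 8 in place of 14 in shA5, beside 29.6% and 30.1% of all genes. The 19 members with TTTGAA in the promoter had a median input change of -0.09 and the 8 without it 0.10, against -0.02 and -0.01 for all genes with and without it, a description of few genes with ranges that overlap from -0.41 to 0.40.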

How the data were processed

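m6A-seq of X-ray-exposed HEK293T cells gave 4 libraries, input and m6A-IP from shCTL and from shA5, without replicates. The authors deposited raw counts for Ensembl transcripts and listed no transcript that lacked a count. Per the submitters' processing notes and the methods, they used bcl2fastq 2.0, fastp 0.23.2, HISAT2 on hg38 and SAMtools 1.9, and the methods name StringTie for quantification and MACS2 for peaks. The program behind the counts, its annotation release and its rule for shared reads and for strand are not given in the sources used here, so a gene's total can depend on how its transcripts share reads.

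Counts were summed per gene symbol (14911 genes, 28413 transcripts) and divided by library totals. Enrichment, its change and the changes of input and m6A-IP are log2 ratios with a pseudocount of 0.5 CPM. A mean of 50 counts or more was required, which left 5320 genes holding 94.5 to 96.2% of each library, and a member was counted past 1.5-fold. The shallowest library, the shA5 input, limits the precision. Intervals are exact at 95%, Clopper-Pearson on the count total for a ratio and the conditional odds ratio for a change of enrichment, without pseudocount. No p-value was computed, for want of replicates.

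Members and lists were chosen with earlier results of these data known. Members were named by role, and in full where they are core G2/M regulators or among the 6 highest or lowest of a measure. The steps were tested on simulated data. Alternatives were edgeR TMM factors and DESeq2 size factors, pseudocounts of 0.1 and 2 CPM, means of 10 or 200 counts or no minimum, 2-fold, the most counted transcript alone, and removal of a lowess trend on GC content (span 0.3). Transcripts and gene positions are from Gencode v44 on hg38, promoters from RefSeq. R 4.3.3 ran edgeR 4.0.16 and DESeq2 1.42.0, and Python 3.11.15 ran pandas 2.3.3, numpy 2.4.6, statsmodels 0.14.6, scipy 1.17.1 and matplotlib 3.10.9. Peaks and reads were not analysed here.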

Additional observations from a re-analysis of the deposited data

How the results depend on the processing

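The members' medians in input, m6A-IP, enrichment and change of enrichment moved within the order-statistic intervals of the 29 members under every alternative run, also where it changed which members entered, and of the counts and medians compared 113 stayed within limits, which are that interval for a median and 1.5 times for a count, while 37 counts moved past them. The members' median enrichment minus that of all genes, -0.19 in shCTL and -0.35 in shA5, was -0.44 and -0.59 with the most counted transcript alone, -0.32 and -0.45 at a mean of 10 counts, -0.37 and -0.47 with no minimum, -0.26 and -0.22 at a mean of 200 counts and -0.17 and -0.22 with the GC trend removed. Scaling moved the enrichment counts: with TMM factors 6 members were enriched and 7 low in shCTL, and 5 and 8 in shA5, and with DESeq2 size factors 7 and 7 in shCTL (34.1% and 20.0% of all genes) and 5 and 8 in shA5 (36.1% and 21.7%). With DESeq2 factors (2.93% of all genes), or a pseudocount of 0.1 CPM (2.67%), 1 member, CDC25A, was past 1.5-fold higher in m6A-IP. In what follows the share of all genes under the same setting stands in brackets. A mean of 10 counts, which admits 50 members, gave 4 lower in input (12.5%), 1 higher (7.01%) and 3 lower (10.2%) in m6A-IP, 23 low in enrichment in shCTL (35.8%) and 26 in shA5 (37.8%), and 3 higher (12.6%) and 5 lower (13.0%) in change of enrichment. A mean of 200 counts, which leaves 16, gave 0 higher in input (1.08%), 6 low in enrichment in shCTL (21.7%) and 6 in shA5 (23.7%), and 0 lower in change of enrichment (1.08%), as it drops SPC25 and UBE2C. No minimum, with all 60, gave 8 lower in input (19.9%), 2 higher (14.5%) and 6 lower (17.7%) in m6A-IP, 30 low in shCTL (36.7%), 6 enriched (24.5%) and 31 low (37.5%) in shA5, and 7 higher (22.7%) and 6 lower (21.4%) in change. At 2-fold, 1 was higher in input (0.470%), and 5 in shCTL (16.9%) and 6 in shA5 (18.4%) were low in enrichment. The most counted transcript alone left 26 members, with SPC25 as the 1 higher in input (3.44%), CENPI as the 1 lower (7.04%) and SPC25 as the 1 lower in change of enrichment (4.90%). With the GC trend removed, 7 were low in shCTL (29.6%) and 8 in shA5 (30.1%). Of the values of single named members 419 stayed within their counting interval and 55 moved. Of those past 1.5-fold 0 changed sign. Nearer to 0 the sign of enrichment depends on the scaling: of 29 members 8 in shCTL (45.5%) and 8 in shA5 (46.3%) were above 0 by library totals, 13 (57.2%) and 14 (59.2%) with TMM factors and 14 (57.7%) and 14 (58.7%) with DESeq2 size factors. AURKB is one that turned in both, at 0.28 and 0.03 with TMM factors. No paired analysis was possible because there is 1 library per group, and for the same reason no replicate could be left out. The 31 members under the minimum are given by their counts.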
